A study of Homo sapiens with 6 samples.

Results

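Cholesterol synthesis and its control by the SREBP transcription factors were followed in 10 genes, HMGCS1, MVK, IDI1, SQLE, MSMO1, DHCR7, STARD4, INSIG1, SREBF1 and SREBF2. They were taken by symbol from the annotation of the array platform. All 10 were measured, each by 1 probe set, among 18417 genes in all. The RNA was that of 2 established cell lines, A673 and SK-N-MC, both derived from Ewing sarcoma, a bone and soft-tissue cancer of the young. Each line was transfected with a control siRNA, with an siRNA against DKK2 (siDKK2), or with an siRNA against ITM2A (siITM2A). Each of the 6 conditions was hybridised to 1 Affymetrix array. The DKK2 product is secreted and modulates Wnt signalling, and ITM2A, which codes for a membrane protein, was silenced as a second, separate target. The label of the ITM2A siRNA ends in 7 for A673 but in 1 for SK-N-MC, so the oligonucleotide may differ between the lines. Every array thus comes from transfected cells, and arrays of untreated cells were not analysed here. With 1 array per line and siRNA, the 2 lines are the replicates of each siRNA effect. P-values set an effect against a spread pooled over all siRNAs and moderated towards that of all genes. For the comparison of the lines, the siRNAs pair the arrays.

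Cells make cholesterol from acetyl-CoA through mevalonate, squalene and lanosterol. The SREBP proteins, encoded by SREBF1 and SREBF2, are held in the endoplasmic reticulum by SCAP and the INSIG proteins while sterols are plentiful. When sterols fall, SREBP is cut in the Golgi, enters the nucleus and raises transcription of the synthesis genes and of INSIG1 itself, which closes a feedback loop. SREBP binds sterol regulatory elements in promoters, commonly next to sites of the CCAAT-binding factor NF-Y.

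The promoters of STARD4, INSIG1, HMGCS1 and SREBF2 are shown because the siRNA and line differences below turn on these genes. INSIG1 and SREBF2 each hold a motif that the other windows shown lack. The 250 bases before the RefSeq start (GRCh38.p14) are given 5′ to 3′ on the strand of the gene: chr5:111512536-111512785 on the minus strand for STARD4, chr7:155297628-155297877 on the plus strand for INSIG1, chr5:43313413-43313662 on the minus strand for HMGCS1 (1 of its 2 listed starts), and chr22:41832855-41833104 on the plus strand for SREBF2. Capitals mark CCAAT on either strand (ATTGG on the other), the E-box CACGTG in INSIG1, and the classical sterol regulatory element in SREBF2, which lies before its CCAAT match.
STARD4: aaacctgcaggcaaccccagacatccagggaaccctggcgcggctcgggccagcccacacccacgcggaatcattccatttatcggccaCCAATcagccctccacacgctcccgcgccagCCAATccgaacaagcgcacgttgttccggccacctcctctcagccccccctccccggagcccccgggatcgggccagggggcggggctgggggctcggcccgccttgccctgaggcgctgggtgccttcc
INSIG1: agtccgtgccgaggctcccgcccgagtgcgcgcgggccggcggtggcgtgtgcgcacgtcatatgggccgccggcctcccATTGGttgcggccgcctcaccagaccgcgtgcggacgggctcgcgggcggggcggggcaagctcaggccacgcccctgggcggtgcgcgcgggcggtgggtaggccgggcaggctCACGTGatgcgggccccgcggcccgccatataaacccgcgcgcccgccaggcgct
HMGCS1: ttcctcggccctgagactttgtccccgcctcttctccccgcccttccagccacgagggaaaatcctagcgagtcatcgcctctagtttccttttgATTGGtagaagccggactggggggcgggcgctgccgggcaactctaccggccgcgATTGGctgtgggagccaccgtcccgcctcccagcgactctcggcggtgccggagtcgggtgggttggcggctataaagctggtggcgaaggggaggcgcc
SREBF2: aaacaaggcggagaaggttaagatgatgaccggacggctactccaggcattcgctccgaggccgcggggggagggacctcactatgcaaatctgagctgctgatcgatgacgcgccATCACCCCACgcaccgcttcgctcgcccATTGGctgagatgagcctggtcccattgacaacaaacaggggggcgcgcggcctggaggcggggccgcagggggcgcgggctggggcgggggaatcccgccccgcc

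Windows were found for 9 of the 10 genes; SQLE had none. That classical element lay in the SREBF2 window alone, from 134 to 125 bases before the start, and in 0.0342% of the 35116 promoter windows of this length. The looser form TCACNCCAC, which overlaps it, also lay in SREBF2 alone among these genes and in 0.883% of all windows. CCAAT lay in 8 of the 9 genes (not in SREBF1) and in 9 of their 13 windows, against 40.4% of measured genes and 32.0% of all windows. The MSMO1 window held it 4 times and the MVK window 5 times. The E-box of INSIG1 lay 55 to 50 bases before the start, a motif found in 6.34% of windows. GGGCGG, the GC box that binds SP1, lay in all 9 genes and in 12 of their 13 windows. It lay in 63.7% of the 14239 measured genes with a window and in 42.6% of windows. Of 31 other sterol-related genes described below that had a window, 27 held the GC box and 16 held CCAAT. All motifs were searched on both strands as exact matches, so forms with a mismatch were not counted. Matches are descriptions of letters, not of binding.

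Each targeted gene read lower with its own siRNA in both lines. With siDKK2, DKK2 stood at 53.0% of its control level in A673 and at 35.1% in SK-N-MC; with siITM2A, ITM2A stood at 8.86% and 9.55%. ITM2A passed over all genes (-3.44 ± 0.17, limma, adjusted p = 0.000442) and DKK2 did not (-1.21 ± 0.17, adjusted p = 0.209). Array medians over all 33297 probe sets lay between 3.35 and 3.44 on the log2 scale. The 6 measured of 7 Ewing sarcoma markers, CD99, NKX2-2, STEAP1, CCND1, PAX7 and LIPI, had mean levels of 5.59 to 10.24. The 14 measured markers of hepatocytes, leukocytes, epithelial cells and adipocytes had means of at most 3.27, below every array median. Interferon-induced genes (13 of 14 measured) moved with siRNA: their median level was 7.40 with control siRNA, 4.27 with siDKK2 and 6.61 with siITM2A in A673, and 4.69, 3.24 and 4.58 in SK-N-MC.

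**Figure D1:**
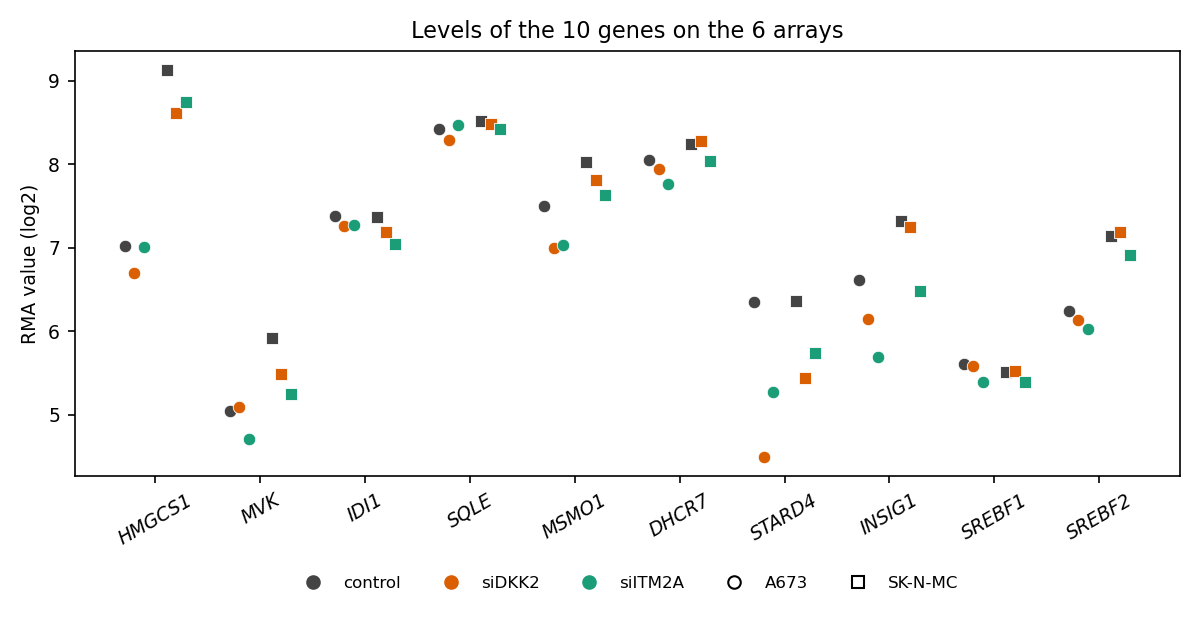
Log2 RMA values of the 10 genes on the 6 arrays (circles A673, squares SK-N-MC; colour gives the siRNA; 1 point is 1 array). STARD4 spanned 4.50 to 6.36 and INSIG1 5.69 to 7.32, while SQLE stayed between 8.29 and 8.52, and all HMGCS1 values of A673 (6.70 to 7.02) lay below those of SK-N-MC (8.62 to 9.13).

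Across the knock-downs the 10 genes stood lower than with control siRNA, by small amounts except in STARD4 and INSIG1. For the mean of siDKK2 and siITM2A against control, all 10 were lower in both lines and 0 higher, where 31.7% and 21.1% of all genes were. Their median difference was -0.24 on the log2 scale (-0.16 in A673 and -0.28 in SK-N-MC), against -0.03 over all genes. None passed the threshold over all genes (limma, 0 of 10 at an adjusted p under 0.05, 5 at an unadjusted p under 0.05), where 0.00543% of genes passed and 7.66% had such an unadjusted p. The 10 genes were chosen with earlier results of these arrays known, so their shared direction is a description. The mean level of the 10 genes was 6.82 with control siRNA in A673 and 6.47 with either knock-down, and 7.35, 7.13 with siDKK2 and 6.97 with siITM2A in SK-N-MC.

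In order of size the fitted differences for the mean of both knock-downs were -1.11 ± 0.18 for STARD4 (SE, n = 2 lines) and -0.58 ± 0.13 for INSIG1. MSMO1 followed at -0.39 ± 0.12, MVK at -0.35 ± 0.13 and HMGCS1 at -0.30 ± 0.12. These 5 had 95% intervals below 0, with adjusted p-values of 0.403 to 0.620 over all genes. IDI1 (-0.18 ± 0.11), DHCR7 (-0.14 ± 0.11), SREBF2 (-0.12 ± 0.11), SREBF1 (-0.08 ± 0.11) and SQLE (-0.05 ± 0.11) had intervals that spanned 0. The control array was the highest of the 3 arrays in both lines for HMGCS1, IDI1, MSMO1, STARD4 and INSIG1, 5 of 10 genes, against 15.5% of all genes, and the lowest for 0 (9.27% of all genes). The siDKK2 array was the highest in both lines for 0 of 10 (12.2% of all genes) and the lowest for STARD4 and HMGCS1, 2 of 10 (15.6%). The siITM2A array was the highest for 0 (10.2%) and the lowest for INSIG1, MVK, DHCR7, SREBF1 and SREBF2, 5 of 10 (14.0%).

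STARD4, which encodes a soluble carrier of sterols between membranes, had the widest range of the 10 within each line. In A673 it stood at 6.35 with control siRNA, 5.28 with siITM2A and 4.50 with siDKK2. In SK-N-MC it stood at 6.36, 5.74 and 5.44. The 2 control arrays were level with each other, and every knock-down array lay below them, in the same order in both lines. With siDKK2 STARD4 was thus lower 3.63-fold (A673) and 1.88-fold (SK-N-MC). The fitted difference was -1.39 ± 0.21 (SE, n = 2 lines; limma, adjusted p = 0.209, with 0.0123 to 1.00 over the alternatives). With siITM2A it was 2.10-fold and 1.53-fold lower (-0.84 ± 0.21, adjusted p = 0.623). Without the SK-N-MC control array STARD4 passed for siDKK2 (-1.74, adjusted p = 0.0188), as it did without the SK-N-MC siDKK2 array (-1.74, adjusted p = 0.0123), and both fits lean on A673, the line with the larger difference. The interferon-induced genes had the same order of siRNAs in both lines (control, then siITM2A, then siDKK2), and their part in the STARD4 values was not tested. In bulk RNA, fewer expressing cells and less RNA per cell cannot be told apart.

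INSIG1, the sterol-sensing retention factor and an SREBP target, was lowest with siITM2A. It stood at 6.62 with control siRNA, 6.15 with siDKK2 and 5.69 with siITM2A in A673. In SK-N-MC the values were 7.32, 7.25 and 6.49. The siITM2A difference was nearly equal in the 2 lines, 1.91-fold and 1.78-fold lower (-0.88 ± 0.14, 95% interval -1.22 to -0.55; limma, adjusted p = 0.410, with 0.0996 to 1.00 over the alternatives). With siDKK2 the A673 value differed by -0.47 and the SK-N-MC value by -0.07, a fitted difference of -0.27 ± 0.14 (adjusted p = 0.651).

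**Figure D2:**
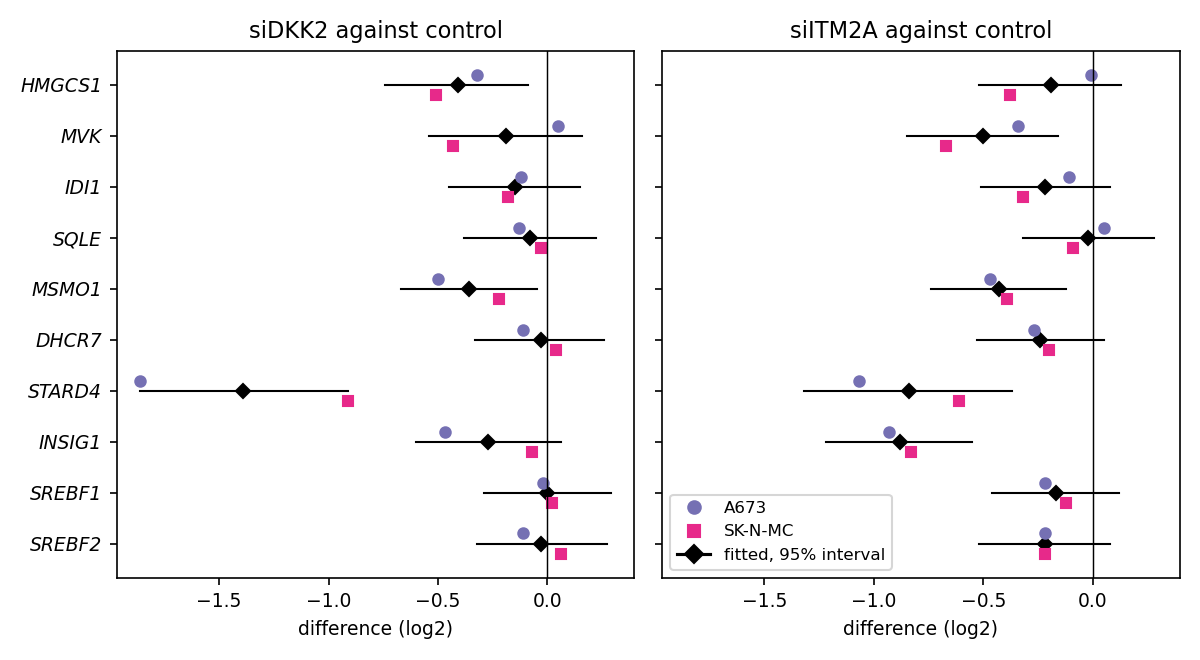
Differences from control siRNA on the log2 scale for siDKK2 and siITM2A (purple circles A673, pink squares SK-N-MC, black diamonds the fitted difference with its 95% interval, n = 2 lines). STARD4 lay at -1.39 with siDKK2 and -0.84 with siITM2A, INSIG1 at -0.27 and -0.88; no gene passed at an adjusted p under 0.05, and both panels share the control arrays.

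Of the mevalonate enzymes, HMGCS1, which makes HMG-CoA at the entry of the pathway, read 7.02 with control siRNA, 6.70 with siDKK2 and 7.01 with siITM2A on the A673 arrays, and 9.13, 8.62 and 8.75 on those of SK-N-MC. It was lowest with siDKK2 in both lines, and the A673 siITM2A array was level with its control. The fitted difference was -0.41 ± 0.14 with siDKK2 (95% interval -0.74 to -0.09; adjusted p = 0.479) and -0.19 ± 0.14 with siITM2A (adjusted p = 0.855). MVK, the kinase that phosphorylates mevalonate, stood at 5.05, 5.10 and 4.71 in A673 and at 5.92, 5.49 and 5.25 in SK-N-MC. Its siITM2A arrays were the lowest of each line (-0.50 ± 0.15, interval -0.85 to -0.16; adjusted p = 0.684), and with siDKK2 the lines differed in sign (0.05 and -0.43). IDI1, the isomerase that makes the pathway's reactive isoprenoid unit, ranged from 7.26 to 7.38 in A673 and from 7.05 to 7.37 in SK-N-MC. Its intervals spanned 0 with siDKK2 (-0.45 to 0.15) and with siITM2A (-0.51 to 0.08).

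Further along the pathway, MSMO1, a demethylating oxidase acting after lanosterol, stood in A673 at 7.50 with control siRNA and 7.04 with siITM2A, with siDKK2 lower than control by -0.50. In SK-N-MC it stood at 8.03, 7.81 with siDKK2 and 7.64 with siITM2A. Both knock-down arrays lay below the control in each line. The fitted differences were -0.36 ± 0.13 with siDKK2 (adjusted p = 0.518) and -0.43 ± 0.13 with siITM2A (adjusted p = 0.684). DHCR7, the enzyme of the last reduction to cholesterol, stood at 8.05, 7.94 and 7.77 in A673 and at 8.24, 8.28 and 8.04 in SK-N-MC. It was lowest with siITM2A in both lines (-0.24 ± 0.13, interval -0.53 to 0.05). SQLE, which epoxidises squalene, varied little, by 0.18 across the A673 arrays and 0.09 across those of SK-N-MC. Its 95% intervals ran from -0.38 to 0.22 with siDKK2 and from -0.32 to 0.28 with siITM2A, so larger changes lay outside them.

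The SREBP genes themselves varied by at most 0.28 between siRNAs within a line. SREBF1, which encodes the forms that drive mainly fatty acid genes, ranged from 5.40 to 5.61 in A673 and from 5.39 to 5.53 in SK-N-MC. SREBF2, which encodes the form that drives mainly sterol genes, ranged from 6.03 to 6.25 and from 6.91 to 7.19. With siDKK2 the intervals were -0.29 to 0.29 for SREBF1 and -0.32 to 0.27 for SREBF2. With siITM2A both were lowest of the 3 arrays in each line, at -0.17 ± 0.13 and -0.22 ± 0.13 (limma, adjusted p = 0.862 and 0.824). Their siITM2A intervals were -0.46 to 0.12 and -0.52 to 0.08. These are transcript levels, and cleavage of the proteins was not measured.

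Counted by siRNA, 6 of the 10 were lower in both lines with siDKK2 and 0 higher, against 31.6% and 23.2% of all genes. Their median difference was -0.17 against -0.02 over all genes. None passed the threshold (limma, 0 of 10, 3 at an unadjusted p under 0.05), which 0.0109% of genes did, with 8.68% at such an unadjusted p. With siITM2A, 9 of 10 were lower in both lines by any amount and 0 higher (30.7% and 21.2% of all genes), at a median of -0.23 against -0.03. The 9 include HMGCS1, at -0.01 in A673, and quantile normalization gave 8. Again 0 passed (limma, 4 at an unadjusted p under 0.05, as for 6.91% of all genes; 0.0109% passed). Both comparisons use the same control arrays and so are not separate results.

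The direct comparison of siDKK2 with siITM2A leaves the control values out of its estimate. INSIG1 read higher with siDKK2 in each line, by 0.46 (A673) and 0.77 (SK-N-MC), for a fitted difference of 0.61 ± 0.14 (interval 0.28 to 0.95; limma, adjusted p = 0.333). STARD4 was lower, by -0.79 and -0.30 (-0.54 ± 0.21, interval -1.02 to -0.07; adjusted p = 0.541). MVK differed by 0.31 ± 0.15, DHCR7 by 0.21 ± 0.13, SREBF2 by 0.19 ± 0.13, SREBF1 by 0.17 ± 0.13 and HMGCS1 by -0.22 ± 0.14, each with an interval that spanned 0. Of the 10 genes 5 were higher in both lines and 2 lower, against 27.4% and 27.5% of all genes, and 0 passed (limma, 2 at an unadjusted p under 0.05, as for 8.32% of all genes; 0.0163% passed).

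**Figure D3:**
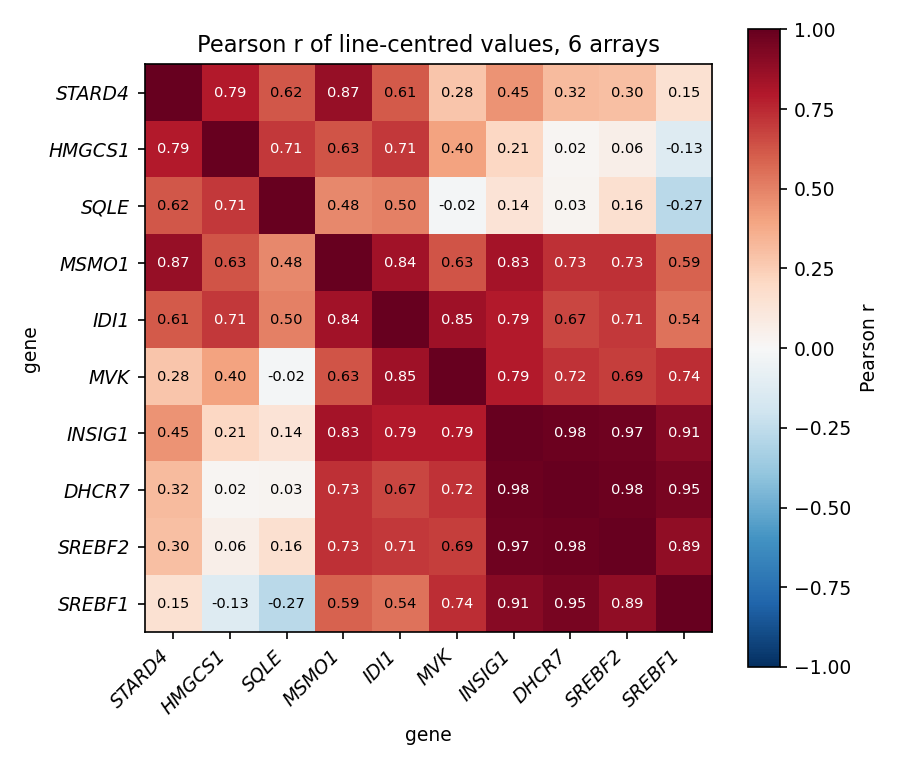
Pearson correlation between the 10 genes over the 6 arrays after each line's mean was subtracted (both axes list the genes; colour and number give r). INSIG1, DHCR7, SREBF2 and SREBF1 correlated at 0.89 to 0.98 with each other, STARD4 with MSMO1 at 0.87, and SQLE with SREBF1 at -0.27.

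Within each line the genes differed in their order of the siRNAs. Correlations were computed after each line's mean was subtracted. Over the 45 pairs the median correlation was 0.63 across 6 arrays, with 42 pairs above 0. All 10 were chosen with earlier results of these arrays known and stood below control for the mean of both knock-downs. Their pairs were therefore likely to correlate above 0, and pairs among all genes were not computed. INSIG1, DHCR7, SREBF1 and SREBF2, with lowest values under siITM2A, correlated at 0.89 to 0.98. MVK, also lowest under siITM2A in both lines, correlated with these at 0.69 to 0.79. The line-centred values of DHCR7, SREBF1 and SREBF2 spanned only 0.28, 0.22 and 0.28. STARD4 and HMGCS1, lowest under siDKK2 in both lines, correlated at 0.79 with each other and at 0.45 and 0.21 with INSIG1. MSMO1 was closest to the mean of all 10 (r = 0.99), followed by IDI1 (0.91), and that mean includes both genes. These points share the same 6 arrays and hold 3 siRNAs only. Among 2631 other genes at or above the median level whose line-centred values spanned at least 0.5, the 5 closest to the mean of the 10 were BDH1, ASB16-AS1, TRIM26, RAB2B and TAOK1 (r = 0.987 to 0.993). BDH1, a mitochondrial enzyme of ketone body metabolism, stood at 4.13, 3.68 and 3.73 in A673 and at 5.22, 4.92 and 4.67 in SK-N-MC (control, siDKK2, siITM2A).

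The 35 other measured genes belong to sterol synthesis, SREBP control, transport, fatty acid synthesis, efflux and isoprenoid branches. For the mean of both knock-downs 10 of them were lower and 8 higher in both lines, against 31.7% and 21.1% of all genes. Their median difference was 0.00, against -0.03 over all genes. None passed (limma, 0 of 35, where 0.00543% of all genes did). At an unadjusted p under 0.05 there were 2, against 7.66% of all genes. Those 2 were MYLIP, a ubiquitin ligase induced by liver X receptors (-0.60 for A673, -0.15 for SK-N-MC), and ELOVL6, a fatty acid elongase (0.15 and 0.45). Ranked by the smaller of the differences in the 2 lines, the first 3 of 1 sign were CYP51A1, the lanosterol demethylase (-0.18 for A673, -0.28 for SK-N-MC), ACLY, which supplies cytosolic acetyl-CoA (-0.20 and -0.17), and FDPS, which makes farnesyl diphosphate (-0.16 and -0.24). The 9 fatty acid genes had a median of 0.05, with 4 higher and 1 lower in both lines (21.1% and 31.7% of all genes). The 7 mevalonate genes, 3 of them among the 10, had a median of -0.18, with 5 lower in both lines (31.7% of all genes). For the 5 efflux genes the median was 0.00, but most of them were dim. ABCA1, ABCG1, CH25H and NR1H3 had mean levels of 2.42, 2.62, 2.32 and 3.46, below the median gene level of 4.04. SCAP, the escort of SREBP, differed by -0.08 ± 0.11 and INSIG2, the second INSIG gene, by -0.07 ± 0.12.

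**Figure D4:**
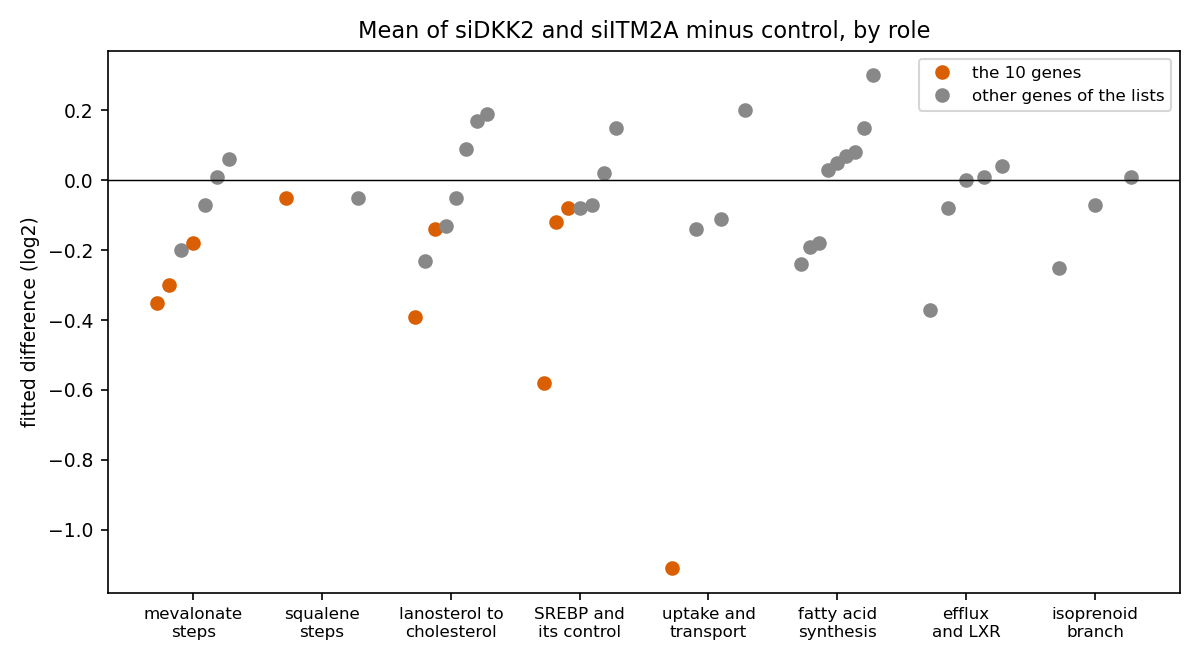
Fitted log2 difference of the mean of siDKK2 and siITM2A against control for 45 genes, grouped by role on the horizontal axis (orange the 10 genes, grey the 35 others; 1 point per gene). The orange points lay between -1.11 and -0.05 and the grey points between -0.37 and 0.30, and no gene passed at an adjusted p under 0.05.

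For the single siRNAs the same ranking by the smaller difference was used. With siDKK2 the first 3 were NPC2, a lysosomal cholesterol-binding protein (0.42 for A673, 0.28 for SK-N-MC), CYP51A1 (-0.39 and -0.28) and MBTPS1, the first protease that cuts SREBP (0.29 and 0.18). The fitted difference of MYLIP, which this ranking leaves out, was larger (-0.47 ± 0.16, from -0.77 and -0.17). A second probe set of CYP51A1, not used here, differed in sign between the lines with siDKK2. It read 6.16 with control siRNA and 5.73 with siDKK2 in A673, and 6.77 and 6.94 in SK-N-MC. The mean of the CYP51A1 probe sets gave -0.23 ± 0.20 with siDKK2. With siITM2A the first 3 were TMEM97, an endoplasmic reticulum protein that binds the cholesterol transporter NPC1 (-0.35 and -0.41), DHDDS, which extends isoprenoids to dolichol precursors (-0.28 and -0.55), and ELOVL6 (0.26 and 0.50). Between the 2 knock-downs TMEM97 (0.65 and 0.30), DHDDS (0.34 and 0.32) and NPC2 (0.29 and 0.32) came first and were higher with siDKK2, while NPC1, outside the first 3, was lower (-0.47 and -0.22). None of the 35 passed in these comparisons (limma). At an unadjusted p under 0.05 there were 3 with siDKK2, 3 with siITM2A and 4 between them, against 8.68%, 6.91% and 8.32% of all genes.

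Between the lines, HMGCS1 was 3.79-fold lower in A673 than in SK-N-MC, SREBF2 1.92-fold, INSIG1 1.83-fold, MSMO1 1.56-fold and MVK 1.51-fold. These 5 of 10 genes passed over all genes (limma with siRNA as a block), each lower in A673, and 0 passed in the other direction. Of all genes 28.5% passed, but that share includes dim genes, and all 10 had means above the median gene level of 4.04. In the fit on genes at or above that level 4472 genes passed, a larger share than 28.5%, and 6 of the 10. At an unadjusted p under 0.05 there were 7 of 10, against 37.0% of all genes. Counting a difference of any size, 7 of the 10 were lower in A673 with all 3 siRNAs and 2 higher, against 29.4% and 24.6% of all genes. These include differences that round to 0.00, of STARD4 with control siRNA and of SREBF1 with siITM2A. HMGCS1 averaged 6.91 ± 0.18 in A673 (SD, n = 3 arrays) and 8.83 ± 0.26 in SK-N-MC, a fitted difference of -1.92 ± 0.11 (adjusted p = 7.7e-06). SREBF2 averaged 6.14 ± 0.11 and 7.08 ± 0.15 (-0.94 ± 0.11, adjusted p = 0.000253). INSIG1 averaged 6.15 ± 0.47 and 7.02 ± 0.46 (-0.87 ± 0.12, adjusted p = 0.000682). Its A673 control array, at 6.62, lay above the SK-N-MC siITM2A array, at 6.49, so the lines overlapped unless arrays of the same siRNA were compared.

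MSMO1 (-0.64 ± 0.11, adjusted p = 0.00246) and MVK (-0.60 ± 0.12, adjusted p = 0.00643) were also lower in A673 with each siRNA. For HMGCS1, SREBF2, MSMO1 and MVK all 3 A673 arrays lay below all 3 SK-N-MC arrays, 4 of 10 genes against 20.8% of all genes, and for 0 all lay above (18.1%). STARD4 was level between the control arrays (6.35 and 6.36) but lower in A673 by -0.95 with siDKK2 and -0.46 with siITM2A, and did not pass (-0.47 ± 0.17, adjusted p = 0.0723). It passed with a control array left out, the same fit for either array (-0.71, limma, adjusted p = 0.00846, where its alternatives ran up to 0.487). It also passed with the filter on dim genes (-0.47, limma, adjusted p = 0.0455). DHCR7 differed by -0.27 ± 0.10 (adjusted p = 0.0952) and passed with an intensity trend in the moderation (adjusted p = 0.0474). SQLE (-0.33 to 0.16), IDI1 (-0.14 to 0.35) and SREBF1 (-0.18 to 0.29) had 95% intervals that spanned 0. Each line is 1 established culture, so a difference between the lines cannot be told apart from a difference between these cultures.

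Among the 35 other genes, 13 were lower and 8 higher in A673 past the threshold, where 2707 and 2549 of the 18417 genes were (28.5% in all). The 28.5% covers genes of every level, and the share among genes at or above the median level was larger. The calls of ACAT2, FDPS, LSS, MBTPS2, NPC1, FASN, MYLIP, NR1H3 and FNTA were lost in at least 1 fit that left out an array. The lower ones included 6 enzymes of sterol synthesis: EBP, a sterol isomerase (-1.52 ± 0.11, adjusted p = 2.5e-05), TM7SF2 (-0.93 ± 0.21), PMVK (-0.83 ± 0.12), CYP51A1 (-0.59 ± 0.12), ACAT2 (-0.53 ± 0.11) and FDPS (-0.41 ± 0.11). SCAP was lower as well (-1.11 ± 0.10, adjusted p = 9.4e-05), with TMEM97 (-0.87 ± 0.12). Acetyl-CoA and fatty acid genes split: ACLY (-1.14 ± 0.11), ACACA (-1.10 ± 0.11) and FASN (-0.38 ± 0.11) were lower in A673, while the desaturase FADS2 (1.10 ± 0.11) and the elongase ELOVL6 (1.15 ± 0.11) were higher. Also higher were the SREBP proteases MBTPS1 (0.96 ± 0.12) and MBTPS2 (0.47 ± 0.11), SC5D (0.83 ± 0.11), NPC1 (0.51 ± 0.11), LSS (0.42 ± 0.12) and NR1H3, the liver X receptor alpha (0.53 ± 0.16). NR1H3 was dim, averaging 3.72 in A673 and 3.19 in SK-N-MC, below the median gene level of 4.04. MYLIP (-0.54 ± 0.13) and FNTA (-0.49 ± 0.13) completed the lower set. Of the 7 mevalonate genes 5 were lower, including HMGCS1 and MVK, already counted above, and 0 higher. Of the 8 genes from lanosterol to cholesterol 4 were lower, including MSMO1, also counted above, and 1 higher. By siRNA, TM7SF2 differed by -1.30 and -1.29 with control siRNA and siDKK2 but by -0.21 with siITM2A.

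**Figure D5:**
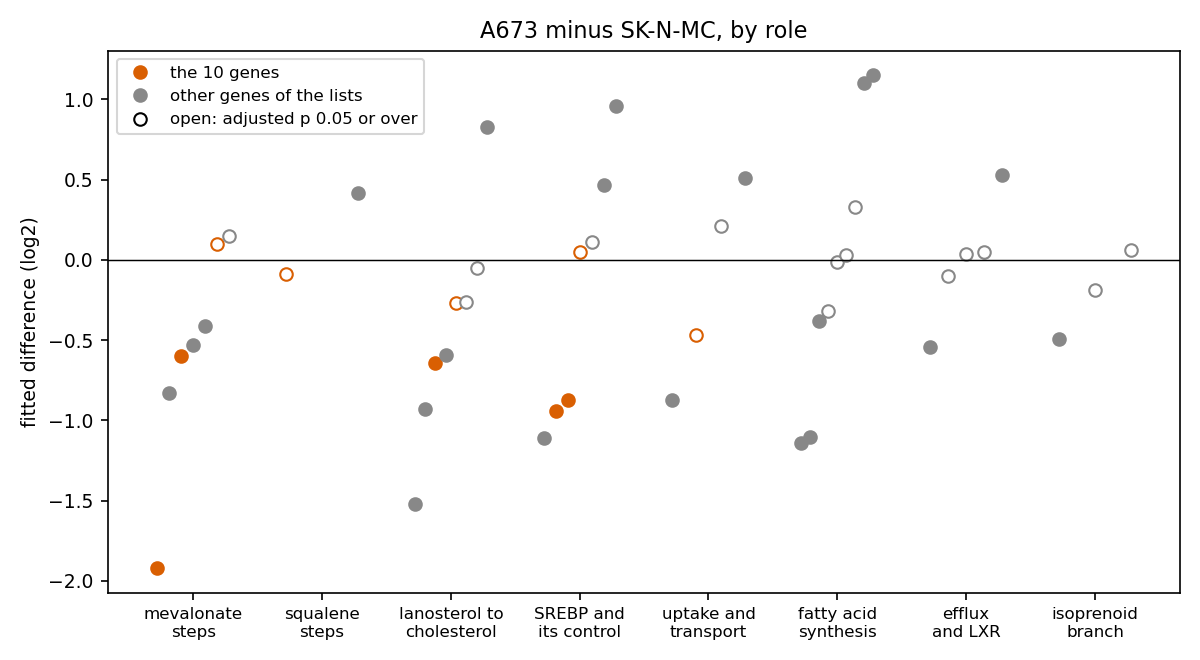
Fitted log2 difference of A673 minus SK-N-MC for the same 45 genes by role (orange the 10 genes, grey the others; filled points passed at an adjusted p under 0.05, open points did not; n = 3 arrays a line). HMGCS1 at -1.92 and EBP at -1.52 were the lowest, FADS2 at 1.10 and ELOVL6 at 1.15 the highest.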

How the data were processed

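Biotin-labelled targets were made from total RNA with an Affymetrix whole-transcript kit, per the labels. Deposited values were used as log2 signals of probe sets; they were made with RMA in Affymetrix Expression Console, per the submitters' processing notes, and the log2 scale was read from the range of 1.02 to 13.4. Software versions and settings, like the genome build, were not given in the sources used here. RMA equalises the distributions of arrays and shrinks the differences of dim probe sets; no scanner files were used, and the number of arrays limits the precision. All 6 columns were matched to samples by their labels.

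The platform annotation gave 1 symbol to 19460 of the 33297 probe sets and several to 1754, and it did not list 12083. Only probe sets with 1 symbol were named, and per gene the one with the highest mean was kept, which left 18417 genes. Of 53 genes in the sterol lists, 8 were not analysed here.

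Differences were fitted in R 4.3.3 with limma 3.58.1 (lmFit, eBayes), with terms for siRNA and for cell line over the 6 arrays, which left 2 residual degrees of freedom (8.28 after moderation). The line pairs the arrays, per the labels, and stayed in the fit as a block. Benjamini-Hochberg adjustment ran over the 18417 genes, and the threshold was 0.05. The fit was tested on simulated data. The alternatives were no block, an intensity trend, a filter on dim genes, averaged probe sets, quantile normalization, only the 4 arrays compared, and each array left out. The 10 genes, the lists and the tests were chosen with earlier results of these data known. Named genes were the 10; of the others, those past the threshold and the 3 per siRNA comparison of 1 sign in both lines whose smaller difference was largest; and the 5 genes whose line-centred values correlated best with the mean of the 10. The siRNA effects of SCAP, INSIG2, MYLIP, NPC1 and, for the mean of both knock-downs, ELOVL6 were named after their values were seen. Promoter sequences and motif shares are from RefSeq (GRCh38.p14).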

Additional observations from a re-analysis of the deposited data

Results flagged for a closer look

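In 8 cases the values of 1 of the 10 genes went in opposite directions in the 2 lines, with 1 array on each side, so the difference between lines was not tested. With siDKK2 against control, MVK differed by 0.05 (A673) and -0.43 (SK-N-MC), which is 0.48 apart. DHCR7 (-0.11 and 0.04) was -0.15 apart (A673 minus SK-N-MC), SREBF1 (-0.02 and 0.02) -0.05 and SREBF2 (-0.11 and 0.06) -0.16. With siITM2A against control, SQLE stood at 0.05 and -0.09, which is 0.14 apart. Between siDKK2 and siITM2A, MSMO1 (-0.03 and 0.17) was -0.20 apart, SQLE (-0.18 and 0.06) -0.23 and IDI1 (-0.01 and 0.14) -0.14. Apart from MVK, none of these gaps exceeded 0.23 on the log2 scale.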

How the results depend on the processing

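The count of the 10 genes past the threshold was 0 in each siRNA comparison under no replicate block, an intensity trend, the filter on dim genes, averaged probe sets and quantile normalization, and it was 0 to 1 when single arrays were left out, for siDKK2 and for the mean of both knock-downs (STARD4). Between the lines it was 5 to 6. Over all genes, siDKK2 against control gave 2 genes, 0 without the paired fit (no replicate block; 322 at an unadjusted p under 0.05 by limma), 7 with the trend, 0 on only the 4 arrays (1433 unadjusted) and 0 to 60 with an array left out. For siITM2A the count of 2 became 0 without the block (230 unadjusted) and 0 to 4. For siDKK2 against siITM2A the count of 3 became 0 without the block (272 unadjusted), 16 with the trend, 6 with the filter, 18 on only the 4 arrays and 1 to 50. For the mean of both knock-downs the count of 1 became 0 without the block (269 unadjusted), 3 with the trend, 3 with the filter, 2 with averaged probe sets and 0 to 37. The cause was not tested; fits without an array have fewer degrees of freedom. The left-out SK-N-MC siDKK2 array gave the highest count in each of these 3 comparisons other than siITM2A.

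Small differences changed sign. With quantile normalization SREBF1 stood at 0.04 and SREBF2 at 0.01 for siDKK2. With 1 array left out, the siDKK2 differences ran from -0.09 to 0.03 for DHCR7, -0.39 to 0.01 for MVK, -0.16 to 0.00 for SQLE, -0.04 to 0.04 for SREBF1 and -0.11 to 0.06 for SREBF2. For siITM2A SQLE ran from -0.11 to 0.07. Between the knock-downs IDI1 ran from -0.02 to 0.15, MSMO1 from -0.05 to 0.19 and SQLE from -0.15 to 0.03. Of the other genes' line calls with an array left out, 94 fits kept the call and 32 lost it, in ACAT2, FDPS, LSS, MBTPS2, NPC1, FASN, MYLIP, NR1H3 and FNTA. FASN also lost it without the block (adjusted p = 0.0528 from limma). Leaving out either array of an siRNA gave the same line fit, so the 94 and the 32 fits come in identical pairs.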
